A study of Mus musculus with 6 samples.

Results

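Matricellular glycoproteins are secreted into the extracellular matrix, where they act less as load-bearing fibres than as signals that change how cells attach, migrate and respond to growth factors. Many are low in resting adult tissue and are made in development, remodelling and wound repair, and most are read by cells through integrins and other surface receptors. In the oviduct most lie in the stroma and muscle wall beneath the folded epithelium that carries the early embryo. The 10 genes described here encode osteopontin (Spp1), fibronectin (Fn1), periostin (Postn), tenascin-C (Tnc), tenascin-X (Tnxb), thrombospondin 1 and 2 (Thbs1 and Thbs2), SPARC (Sparc), SPARC-like 1 (Sparcl1) and SMOC2 (Smoc2). They were picked by symbol, and all 10 were found among the 55483 gene rows of each table. These genes and the gene lists used below were chosen with earlier results of these data known. Their counts beside the share of all features are therefore descriptive.

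The study sequenced RNA of whole oviducts from female mice aged 6 to 8 weeks, taken on gestational day 3 after mating to fertile males, with the day of the vaginal plug counted as day 1. There were 3 libraries labelled Mettl3 f/f and 3 labelled Mettl3 d/d. Mettl3 is the catalytic subunit of the enzyme complex that writes N6-methyladenosine on RNA, f/f is the usual notation for loxP-flanked alleles and d/d for deleted ones. The strain, the Cre driver, the cells in which it acts and the deleted exons are not given in any source used here, nor whether each library is 1 animal, so the p-values rest on the differences among these libraries alone, whose source may be technical.

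Levels are given in FPKM, which divides the fragments of a gene by transcript length and library size, and so can be compared between genes of different length. Steps in the lowest values implied 16600000 to 17800000 fragments per library. The targeted gene went against the labels and was called higher in the d/d group, with Mettl3 at 11.8, 12.1 and 13.2 FPKM for f/f replicates 1 to 3 against 19.8, 20.3 and 24.5 for d/d replicates 1 to 3. The difference was 1.74-fold, without overlap (limma adjusted p = 0.0145), and leaving out f/f replicate 2 ended the call (0.0722). A gene-level value cannot show a missing exon, so the labels were not verified by it, and the directions given here depend on those labels. The oviduct glycoprotein gene Ovgp1, the defining secretory marker of the tissue, was between 2651 and 5690 FPKM in all 6 libraries. The mitochondrial share of all FPKM was 3.61 to 5.70% in f/f and 6.50 to 9.70% in d/d, and its part in the results was not tested. Of 15438 features with a mean of at least 1 FPKM, 933 rose and 768 fell between f/f and d/d (limma on log2(FPKM + 1), Benjamini-Hochberg adjusted p under 0.05), which is 11.0% of those tested. At an unadjusted p under 0.05 the share was 29.6%.

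The matricellular genes moved in different directions. Spp1, Postn, Thbs1 and Thbs2 rose in the libraries labelled d/d, Fn1 fell, and Sparc and Sparcl1, the most abundant members, were at nearly equal means in both groups. In counts, 4 of 10 members were called higher, where 6.04% of all tested features were, and 1 of 10 lower, where 4.97% were. The values of f/f and d/d did not overlap for 7 of the 10, the called genes and Tnc and Smoc2, where 35.6% of all tested features did not overlap. For each of these 7 a two-sided exact permutation test gave p = 0.1, the lowest possible with 3 libraries a side. That value follows from the lack of overlap and adds nothing to it. The median log2 change of the 10 was 0.67, beside -0.01 over all features tested. Without f/f replicate 2 no member passed the threshold. Testing all features with no filter on low values left 2 of the 5 calls, those of Fn1 and Thbs2.

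**Figure D1:**
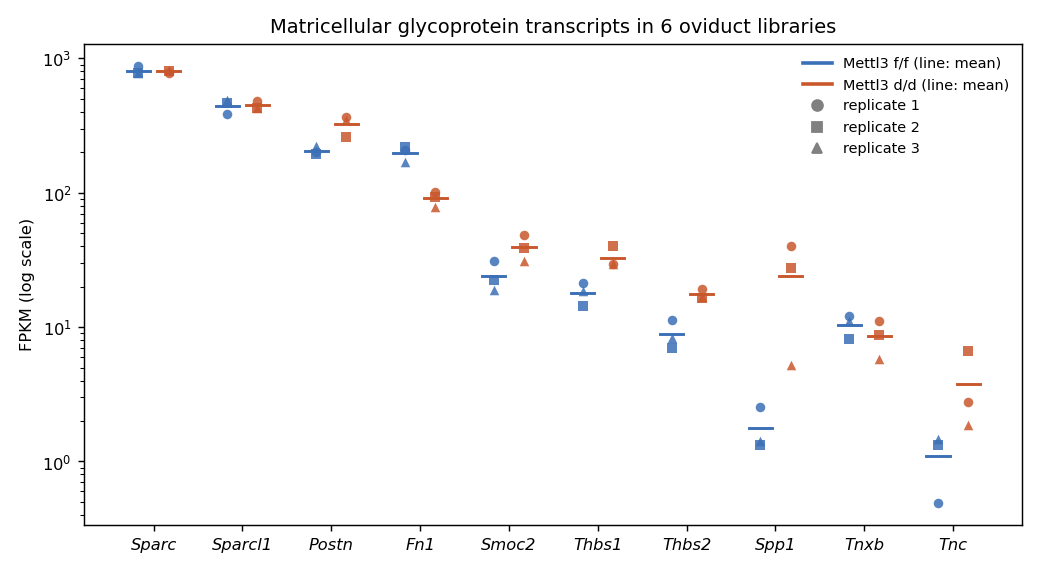
FPKM (log scale) of the 10 genes in each of the 6 libraries, ordered by mean level, with f/f in blue, d/d in orange, 1 marker shape per replicate number and a short line at the group mean. Sparc and Sparcl1 lie at the same height in both groups, Fn1 drops in d/d, and Spp1 spreads from 5.21 to 39.8 FPKM among the libraries labelled d/d.

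Spp1 had the largest rise of the 10. It encodes osteopontin, a phosphorylated, integrin- and CD44-binding glycoprotein that is made by bone cells, many epithelia and activated macrophages. The gene (ENSMUSG00000029304) lies on chromosome 5 at 104435118 to 104441050, plus strand, in GRCm38. Its level was 2.55, 1.32 and 1.43 FPKM for f/f replicates 1 to 3 against 39.8, 27.4 and 5.21 FPKM for d/d replicates 1 to 3. All libraries labelled d/d were above all labelled f/f, but d/d replicate 3 stood well below the other two. The means were 1.77 ± 0.682 and 24.2 ± 17.5 FPKM (SD, n = 3 each), a 13.7-fold difference, and limma gave a log2 change of 2.83 (SE 0.66, adjusted p = 0.0425). From the implied depth and the longest transcript of 1507 nt, these levels stand for roughly 30 to 57 fragments per f/f library and 110 to 860 per d/d library.

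The Spp1 call depended on single libraries. It held without d/d replicate 3 (limma adjusted p = 0.0158). It missed the threshold when f/f replicates 1, 2 or 3 were left out (0.0678, 0.141 and 0.12) and likewise for d/d replicates 1 or 2 (0.0995 and 0.126), with the log2 change between 2.29 and 3.65 over these fits. The fold between group means ran from 9.23 without d/d replicate 1 to 19.02 without d/d replicate 3.

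Macrophage and myeloid markers rose in d/d together with Spp1. Of 14 markers 12 were called higher and 0 lower, where 6.04% and 4.97% of all tested features were. The groups did not overlap for any of the 14, where 35.6% of all features did not, with 13 higher in d/d and 1, the scavenger receptor gene Cd163, lower at 2.11 to 3.57 FPKM for f/f and 1.26 to 1.69 for d/d (limma adjusted p = 0.127, a gene named after its values were seen). Their summed level was 481 to 608 FPKM for f/f and 1335 to 1773 FPKM in d/d, with d/d replicate 3 lowest of its group, as for Spp1. Adgre1, Csf1r and Mrc1, named after their values were seen, were not lowest of d/d in that library, while the other markers were. Fn1, Tnc, Tnxb, Sparcl1 and Smoc2 were also lowest of d/d there, so this order was not particular to Spp1 and the markers. Aif1, a macrophage calcium-binding protein, was at 9.20 to 10.2 FPKM for f/f and 30.3 to 45.6 for d/d, and the protease gene Ctss at 49.7 to 59.7 and 144 to 222. Lyz2, which encodes lysozyme, and the complement gene C1qb were called as well, and these 4 named markers kept their calls without any 1 library. In whole tissue, more cells of a type and more RNA per cell cannot be told apart, and the part of myeloid cells in the Spp1 result was not tested.

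Leaving out model and clone symbols such as Gm and Rik names, the genes whose profile lay closest to that of Spp1 were immunoglobulin segments and 2 innate defence genes. Likeness was measured as the root mean square difference of mean-centred log2(FPKM + 1) over the 6 libraries. It was 0.202 for Ighv14-4, 0.444 for Lcn2, 0.459 for Igkv12-44, 0.467 for Ighv10-1 and 0.476 for Cfb. Lcn2, which encodes the iron-siderophore-binding lipocalin 2, was at 81.7, 76.8 and 56.5 FPKM for f/f replicates 1 to 3 against 763, 512 and 264 for d/d replicates 1 to 3. Cfb, complement factor B, was at 14.6, 8.40 and 9.36 FPKM and then 79.9, 63.2 and 14.2, so its groups overlapped between f/f replicate 1 and d/d replicate 3, and it was not called (limma adjusted p = 0.0942). Ighv14-4 was listed at 0 in all f/f libraries and at 15.6, 9.45 and 1.38 FPKM in d/d, and values of such variable segments are uncertain because near-identical copies can share reads. These genes were chosen for their likeness to Spp1, so their shared order of libraries follows from the choice. Ighv14-4 and Igkv12-44, both listed at 0 in f/f, passed the filter on low values through d/d alone.

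**Figure D2:**
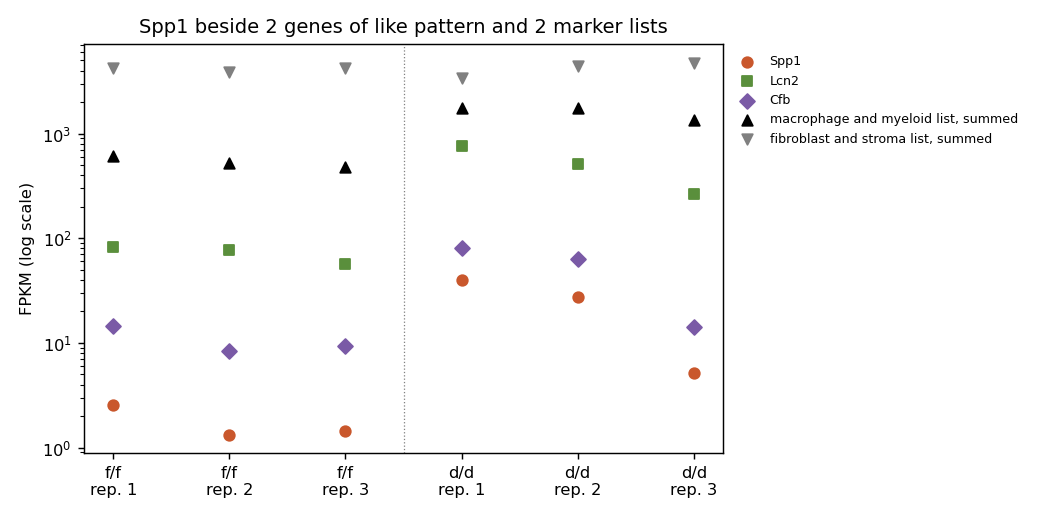
FPKM (log scale) per library of Spp1, Lcn2 and Cfb and of the summed macrophage and myeloid and the summed fibroblast and stroma marker lists, with a dotted line between f/f and d/d libraries. The first 4 series are lowest of the d/d group in replicate 3, where Spp1 was 5.21 FPKM, while the stroma sum overlaps between groups.

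Fn1 was the only member called lower. Fibronectin forms the fibrillar network on which other matrix proteins are laid down, and it binds cells through integrin alpha 5 beta 1. The gene (ENSMUSG00000026193) lies on chromosome 1 at 71585520 to 71653200, minus strand. It was at 208, 218 and 168 FPKM for f/f replicates 1 to 3 against 102, 93.3 and 78.1 FPKM for d/d replicates 1 to 3. Every library labelled d/d was below every library labelled f/f. The mean went from 198 ± 26.3 to 91.03 ± 11.9 FPKM (SD, n = 3 each), 2.18-fold lower, with a log2 change of -1.11 (SE 0.15, limma adjusted p = 0.0102). Leaving out f/f replicate 2 ended the call (limma adjusted p = 0.0545), and it was kept in the other 5 leave-one-out fits, where each other called member kept its call in 1. A value per gene does not separate the splice forms of fibronectin.

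Periostin rose while fibronectin fell. Periostin binds fibronectin, collagen and integrins and promotes collagen cross-linking. Postn (ENSMUSG00000027750, chromosome 3, 54361109 to 54391037, plus strand) was at 202, 195 and 221 FPKM for f/f replicates 1 to 3 against 369, 260.2 and 349 FPKM for d/d replicates 1 to 3. The groups did not overlap, and d/d replicate 2 was the closest to f/f. The mean went from 206 ± 13.5 to 326 ± 57.6 FPKM (SD, n = 3 each), 1.58-fold higher (a log2 change of 0.64 with an SE of 0.16 and an adjusted p of 0.0461 by limma). Leaving out d/d replicate 2 kept the call (limma adjusted p = 0.0379). It was lost when f/f replicates 1, 2 or 3 were left out (0.0846, 0.153 and 0.0999) and likewise for d/d replicates 1 or 3 (0.119 and 0.131). In f/f the ranges of Postn and Fn1 overlapped and their ratio was 0.969, 0.895 and 1.31 in replicates 1 to 3. In d/d the ratio was 3.62, 2.79 and 4.46, above every f/f library, which follows from the separate rise of Postn and fall of Fn1.

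Both thrombospondins of the trimeric class rose. Thrombospondin 1 and thrombospondin 2 are calcium-binding glycoproteins that inhibit angiogenesis through CD36 and bind CD47, and thrombospondin 1 also activates latent TGF-beta. Thbs1 (ENSMUSG00000040152, chromosome 2, 118111876 to 118127133, plus strand) was at 21.3, 14.4 and 18.6 FPKM for f/f replicates 1 to 3 against 29.3, 40.1 and 29.4 FPKM for d/d replicates 1 to 3. The groups did not overlap, and the mean was 1.82-fold higher, from 18.1 ± 3.48 to 32.9 ± 6.19 FPKM (SD, n = 3 each; a log2 change of 0.83 with an SE of 0.18 and an adjusted p of 0.0369 by limma). Thbs2 (ENSMUSG00000023885, chromosome 17, 14665500 to 14694235, minus strand) was at 11.4, 7.002 and 8.24 FPKM for f/f and at 19.4, 16.5 and 16.8 FPKM in d/d. The d/d libraries were close to each other and all above f/f, with means of 8.87 ± 2.24 and 17.6 ± 1.57 FPKM (SD, n = 3 each; 1.98-fold; a log2 change of 0.93 with an SE of 0.18 and an adjusted p of 0.0239 by limma). The Thbs1 to Thbs2 ratio was between 1.88 and 2.25 in f/f and between 1.51 and 2.42 for d/d, so the ratio overlapped between groups.

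Each thrombospondin call held without f/f replicate 1, at a limma adjusted p of 0.0344 for Thbs1 and 0.0115 for Thbs2, and was lost when any other 1 library was left out. The adjusted p was then 0.117, 0.0976, 0.0715, 0.0975 and 0.0821 for Thbs1 without f/f replicates 2 and 3 and d/d replicates 1, 2 and 3. For Thbs2 the same fits gave 0.086, 0.0834, 0.0746, 0.0723 and 0.0746. Rescaling to nuclear protein-coding genes also ended the Thbs1 call (limma adjusted p = 0.0597). Platelets carry thrombospondin 1. Of 8 platelet and megakaryocyte markers, 3 were tested, 0 were called higher and 1 lower (Gp1bb, 3.03 to 8.45 FPKM for f/f and 0.729 to 1.08 for d/d, a call that 4 of 6 leave-one-out fits lost, for a gene that passed the filter only through f/f). Their sum was 28.7 to 34.5 FPKM for f/f and 18.9 to 55.4 for d/d, Treml1 was listed at 0 in all 6 libraries, and the part of platelets in the Thbs1 result was not tested.

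Tnc was the least abundant member, with a coefficient of variation of 48.4% in f/f and 67.7% in d/d. Tenascin-C is a large hexameric glycoprotein that counters adhesion to fibronectin and is low in most adult tissue. The gene (ENSMUSG00000028364) lies on chromosome 4 at 63959785 to 64047015, minus strand. It was at 0.490, 1.32 and 1.48 FPKM for f/f replicates 1 to 3 against 2.77, 6.67 and 1.87 FPKM for d/d replicates 1 to 3. The groups did not overlap, yet d/d replicate 3 was nearer to f/f than to d/d replicate 2. The means were 1.10 ± 0.531 and 3.77 ± 2.55 FPKM (SD, n = 3 each), a ratio of 3.44, which did not pass the threshold (a log2 change of 1.09 with a 95% interval of 0.13 to 2.05 and an adjusted p of 0.132 by limma). Without d/d replicate 2 the ratio was 2.12, and over all 6 leave-one-out fits it was at most 4.31. The span of 8030451A03Rik overlaps that of Tnc on the opposite strand, and it was listed at 0 to 0.281 FPKM for f/f and 0.169 to 0.730 for d/d. Whether exons of the 2 genes overlap was not examined. If counting ignored strand, reads within any shared exon sequence cannot be told apart.

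Tnxb, which encodes tenascin-X, a tenascin of loose connective tissue tied to collagen and elastic fibres, was not called. The gene (ENSMUSG00000033327, chromosome 17, 34670535 to 34719815, plus strand) was at 12.1, 8.20 and 11.1 FPKM for f/f replicates 1 to 3 against 11.1, 8.77 and 5.78 FPKM for d/d replicates 1 to 3. The groups overlapped. The log2 change was -0.28 (95% interval of -0.86 to 0.29, adjusted p = 0.475 by limma), so the interval spans both a fall and a rise.

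Sparc and Sparcl1 dominated the group in level. SPARC is a calcium- and collagen-binding protein that is needed for normal collagen fibril assembly, and Sparcl1, also called hevin, shares its calcium-binding and follistatin-like domains. Sparc (ENSMUSG00000018593, chromosome 11, 55394500 to 55423183, minus strand) was at 879.9, 774 and 779.7 FPKM for f/f replicates 1 to 3 against 781, 811 and 821 FPKM for d/d replicates 1 to 3. Sparcl1 (ENSMUSG00000029309, chromosome 5, 104079111 to 104113733, minus strand) was at 383, 468 and 486 FPKM for f/f and at 482, 430.2 and 429 FPKM in d/d. Both genes overlapped between groups. The log2 change was -0.01 for Sparc (95% interval from -0.31 to 0.29, limma adjusted p = 0.969) and 0.01 for Sparcl1 (from -0.32 to 0.34, limma adjusted p = 0.971). On the FPKM + 1 scale these intervals leave room for a mean level between 0.804 and 1.23 times that of f/f for Sparc and between 0.803 and 1.26 times for Sparcl1.

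Smoc2 encodes a secreted modular calcium-binding protein of the SPARC family that takes part in growth factor signalling. The gene (ENSMUSG00000023886, chromosome 17, 14279506 to 14404790, plus strand) was at 31.03, 22.5 and 18.9 FPKM for f/f replicates 1 to 3 against 48.5, 38.9 and 31.2 FPKM for d/d replicates 1 to 3. The groups did not overlap by a narrow margin, with d/d replicate 3 just above f/f replicate 1. The means were 24.1 ± 6.23 and 39.5 ± 8.64 FPKM (SD, n = 3 each; ratio 1.64), and the difference did not pass the threshold (a log2 change of 0.70 with a 95% interval of 0.17 to 1.23 and an adjusted p of 0.0929 by limma). It passed when f/f replicate 1 was left out (0.0471), and in none of the other 5 leave-one-out fits.

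**Figure D3:**
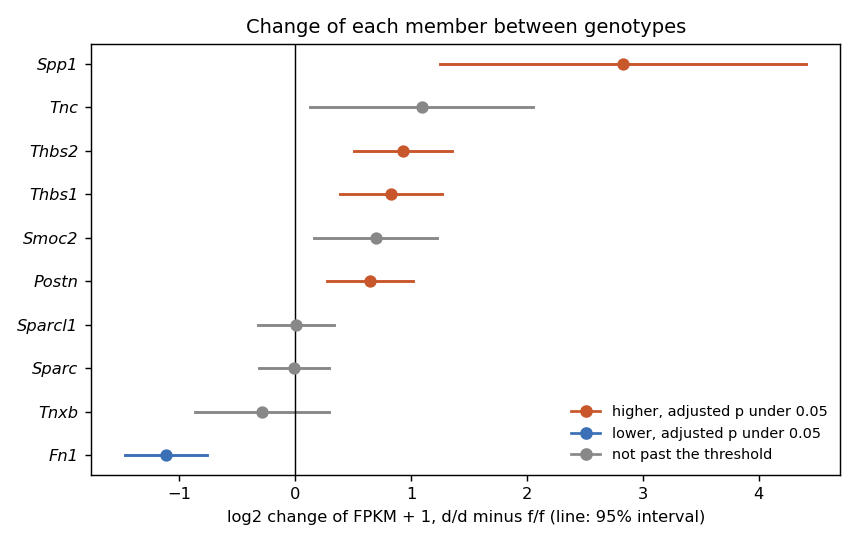
Log2 change of FPKM + 1, d/d minus f/f, for the 10 genes with its 95% interval from limma, coloured by call. Spp1 lies at 2.83 with the widest interval, from 1.25 to 4.41, Fn1 alone lies below 0 with its whole interval, and Sparc and Sparcl1 sit at 0.

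Ordered by mean level, the f/f libraries ran Sparc, Sparcl1, Postn, Fn1, Smoc2, Thbs1, Tnxb, Thbs2, Spp1 and Tnc. The ranges of Postn and Fn1, Smoc2 and Thbs1, Tnxb and Thbs2, and Spp1 and Tnc overlapped. Within each f/f library Smoc2 was above Thbs1 and Tnxb above Thbs2. The order of Postn and Fn1, and that of Spp1 and Tnc, varied between f/f libraries. In the libraries labelled d/d, Fn1 was apart from and below Postn, and Spp1 moved up to stand between Thbs1 and Thbs2, with a range that overlapped both. By mean FPKM over the 15438 tested features, Sparc ranked 92, Sparcl1 158 and Tnc 13465. The sum of the 10 genes overlapped between groups, at 1752, 1709 and 1715 FPKM for f/f replicates 1 to 3 against 1884, 1733 and 1767 for d/d. Of that sum, the share of Fn1 was 11.5% ± 1.51 for f/f and 5.07% ± 0.560 for d/d, and the share of Postn 11.9% ± 0.824 and 18.1% ± 2.67 (SD, n = 3 each).

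**Figure D4:**
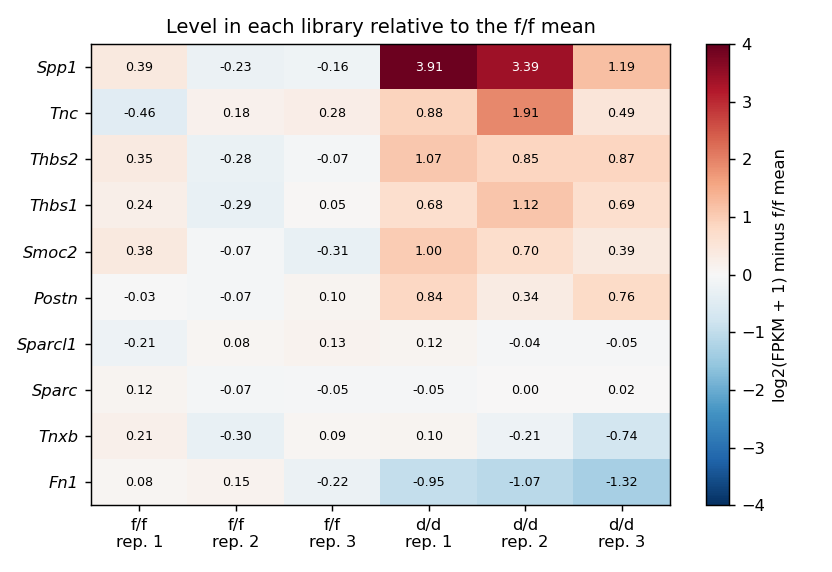
Each cell gives log2(FPKM + 1) in 1 library minus the mean of the 3 f/f libraries for that gene, red for higher and blue for lower. Spp1 is red in all 3 d/d libraries but paler in replicate 3, Fn1 is blue in all 3, and the rows of Sparc and Sparcl1 stay near white.

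Some members are neighbours in the genome. Spp1 and Sparcl1 lie 321 kb apart on chromosome 5, and the protein-coding genes between them, Ibsp, Dmp1, Dspp and Mepe, which encode matrix proteins of bone and tooth, were at 0.216 FPKM or less in every library. Smoc2 and Thbs2 lie 261 kb apart on chromosome 17, with 0 protein-coding genes of the tables between them. For Sparc, Thbs2 and Postn, no other gene of the tables overlapped in GENCODE M21. The genes that overlap the other 7 members were all at 0.737 FPKM or less.

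The sequence just before the start of the called genes was compared where RefSeq (GRCm38.p6) held it. Of the 10 members, 6 had an entry, among them Spp1, Postn and Thbs2, which rose. The 250 bases before the annotated start are shown for these 3, at the start nearest to the GENCODE gene start, 5′ to 3′ on the gene's strand, so that their letters can be compared.
Spp1, chr5:104434861-104435110, plus strand: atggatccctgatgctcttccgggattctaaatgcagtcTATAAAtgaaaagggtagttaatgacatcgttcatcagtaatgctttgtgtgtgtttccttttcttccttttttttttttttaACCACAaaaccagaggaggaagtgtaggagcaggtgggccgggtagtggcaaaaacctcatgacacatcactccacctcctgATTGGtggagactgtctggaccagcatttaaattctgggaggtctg
Postn, chr3:54360857-54361106, plus strand: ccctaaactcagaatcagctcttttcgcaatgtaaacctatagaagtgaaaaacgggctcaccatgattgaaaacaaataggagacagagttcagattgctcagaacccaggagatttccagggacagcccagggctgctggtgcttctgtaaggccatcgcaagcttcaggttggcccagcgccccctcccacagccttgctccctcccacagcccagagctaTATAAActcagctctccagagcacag
Thbs2, chr17:14694263-14694512, minus strand: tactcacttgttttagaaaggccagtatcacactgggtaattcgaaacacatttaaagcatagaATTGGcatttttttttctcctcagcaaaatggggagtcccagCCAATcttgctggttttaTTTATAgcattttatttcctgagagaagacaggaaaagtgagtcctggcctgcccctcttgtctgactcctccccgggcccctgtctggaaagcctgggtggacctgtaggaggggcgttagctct
Capitals mark matches, on either strand, to a TATA box (the letters TATAAA), to a CCAAT box (named by its letters) or to a RUNX site (the letters TGTGGT). An AP-1 site (the letters TGANTCA) was also searched for. The GC box (the letters GGGCGG) was the last of the 5 motifs, and no matches overlapped each other in the 3 windows. Counting back from the start, the TATA letters began at -211 in Spp1, -26 in Postn and -126 in Thbs2. These letters occur in 12.4% of 32817 windows of the same length. CCAAT letters were found at -46 in Spp1 and at -186 and -144 in Thbs2 (33.8% of windows), and RUNX letters at -128 in Spp1 (14% of windows). The AP-1 (6.75% of windows) and GC box (32.7%) letters were not in these 3 windows. Among the other members with an entry, Tnxb held the AP-1 letters at -55 and Tnc held TATA and GC box letters, while the Sparc window held 0 matches. That Sparc window, at 55420081 to 55420330 on the minus strand, lies inside the gene, whose GENCODE start is at 55423183. The sequence before that GENCODE start was therefore not searched. A match here is a description of letters and not of a bound site.

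The letters GGACT, a common context of the mark that Mettl3 writes, were counted in the longest coding transcript of each gene. The median over 13476 tested coding genes was 1.06 per kb, with quartiles of 0.651 and 1.53. Tnxb (2.70 per kb), Tnc (2.39), Thbs1 (2.22) and Spp1 (1.99) were above the upper quartile. Postn (0.624) and Sparc (0.435) were below the lower quartile, and Smoc2 (0.706), Thbs2 (0.848), Fn1 (0.962) and Sparcl1 (1.09) were between the quartiles. The called genes thus lay on both sides of the median, and methylation itself was not measured in these libraries.

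Relatives of the members in the same gene families did not all follow them. The family genes in this paragraph other than Spock1 and Spock2 were chosen after their values were seen, to complete each family. Of the other thrombospondins, Thbs3 was at 17.3 to 26.6 FPKM for f/f and 18.3 to 22.5 for d/d, Thbs4 at 0.420 to 1.90 and 1.65 to 4.51, both overlapping, and Comp was under 1 FPKM throughout. The tenascin genes Tnn and Tnr were at most 0.425 FPKM. In the SPARC family, Fstl1, a secreted follistatin-like protein, was at 94.96 to 107 FPKM for f/f and 98.2 to 122 for d/d, with overlapping groups (limma adjusted p = 0.352), and Spock3 was at 0.300 FPKM or less. The proteoglycan genes of that family, Spock2 and Spock1 (testicans), were called lower. Spock2 was at 49.1, 45.5 and 47.01 FPKM for f/f replicates 1 to 3 against 16.4, 12.9 and 13.4 for d/d (log2 change -1.67, limma adjusted p = 0.00267). It kept that call without any 1 library. Spock1 was at 4.21 to 4.95 FPKM for f/f and 1.24 to 2.42 for d/d, a call that held only without d/d replicate 1 among the leave-one-out fits. Smoc1, the paralog of Smoc2, lay the other way from it, at 13.9, 63.3 and 57.04 FPKM for f/f and 11.2, 5.39 and 6.45 for d/d, with groups that did not overlap and a limma adjusted p of 0.0557.

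Among 17 tested other matricellular and adhesive genes, 0 were called higher and 3 lower, where 6.04% and 4.97% of all features were. The median log2 change was -0.05. Beside the testicans, the third was Tgfbi, a collagen- and integrin-binding matrix protein induced by TGF-beta, at 146, 184 and 196 FPKM for f/f replicates 1 to 3 against 100.2, 74.4 and 59.5 for d/d (log2 change -1.18, limma adjusted p = 0.0193). Its call was lost without f/f replicate 2 or 3 or d/d replicate 2 or 3, at a limma adjusted p of up to 0.0853. Of these 17 genes, 9 had an unadjusted p under 0.05 by limma, where 29.6% of all features did. The groups did not overlap for 9, where 35.6% of all features did not. Log2 changes were positive for 8 and negative for 9. Ccn2 and Ccn4, named after their values were seen, were higher in d/d without overlap but were not called (limma adjusted p = 0.0698 and 0.0747). Of the 20 receptors, 0 were called in either direction by limma and 4 had an unadjusted p under 0.05, where 29.6% of all features did, with a median log2 change of 0.20. The most abundant were the calreticulin gene Calr, at 455 to 538 FPKM for f/f and 442 to 565 for d/d, and the endocytic receptor Lrp1, at 181 to 217 and 165 to 184. Of 10 TGF-beta ligands, receptors and induced genes, 0 were called by limma and 5 had an unadjusted p under 0.05, where 29.6% of all features did (median log2 change 0.30), though 1 or 2 passed under other scalings. Ltbp1, which stores latent TGF-beta in the matrix, was at 92.9 to 124 FPKM for f/f and 145 to 151 for d/d (limma adjusted p = 0.0689), and the receptor gene Tgfbr2 at 71.1 to 84.5 and 65.4 to 87.4. The ligand gene Tgfb1, named after its values were seen, was at 11.3 to 15.1 FPKM for f/f and 17.6 to 24.9 for d/d. It narrowly missed the threshold (limma adjusted p = 0.05004). Of the 10 log2 changes, 8 were positive and 2 negative.

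Enzymes that act on matricellular proteins were mostly higher where they were called. Of 17 tested cross-linking and cleaving enzymes, 5 were called higher, where 6.04% of all features were. The 1 called lower is near the share of all features, 4.97%. The median log2 change was 0.33. The metalloproteinase Mmp7, which cleaves osteopontin and fibronectin, was at 5.27, 8.26 and 9.83 FPKM for f/f replicates 1 to 3 against 55.9, 60.8 and 18.8 for d/d (limma adjusted p = 0.027). Its d/d replicate 3 was the lowest of the d/d group, as for Spp1, and the call held only without that library among the leave-one-out fits, whose adjusted p ran from 0.0208 to 0.0978. Mmp2, gelatinase A, was at 98.3, 56.1 and 64.7 FPKM for f/f and 198, 215 and 234 for d/d (limma adjusted p = 0.0101), and lost its call only without f/f replicate 2 (0.0506). Mmp14, the membrane enzyme that activates Mmp2, was at 100.4, 103 and 106 FPKM for f/f and 233, 293 and 286 for d/d (limma adjusted p = 0.00374), a call kept without any 1 library. The macrophage elastase Mmp12 was at 0.198 FPKM or less in f/f and 1.67 to 2.77 for d/d, and its call was lost when replicate 2 of either group was left out, at a limma adjusted p of up to 0.0572. With an f/f mean of 0.118 FPKM, Mmp12 passed the filter only through d/d, so its call adds nothing to the count of enzymes. The other called genes were Fam20c, a kinase that phosphorylates osteopontin, which was higher, and Adamts1, which was lower.

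**Figure D5:**
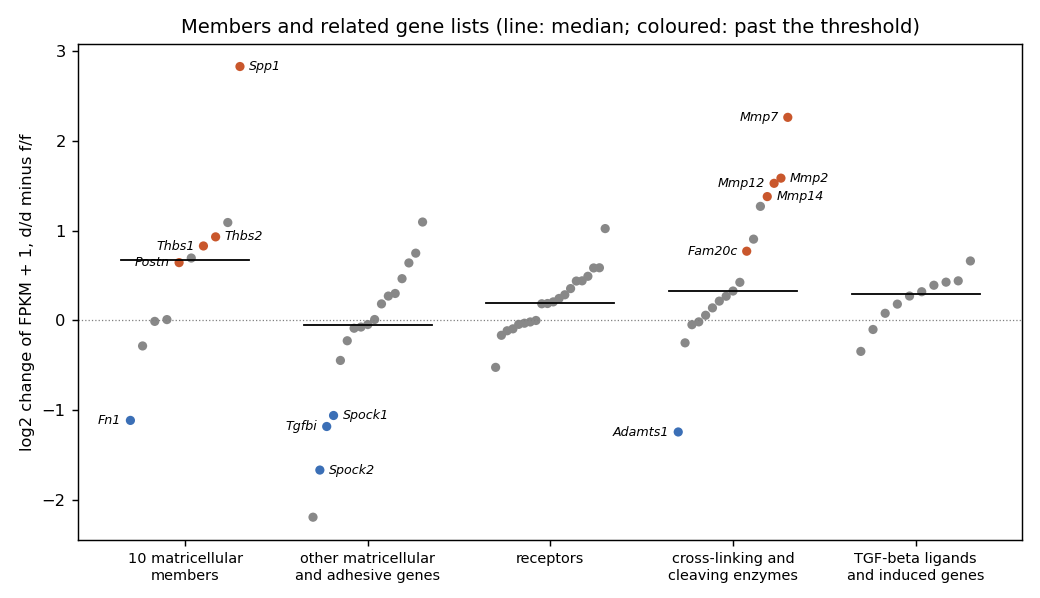
Log2 change of FPKM + 1, d/d minus f/f, for each tested gene of 5 lists, with a black line at each median and coloured, named points past the threshold. The enzymes include Mmp7, Mmp2, Mmp12 and Mmp14 above 1, the receptor and TGF-beta lists have 0 called genes, and the other matricellular genes have called points only below 0.

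Markers of the cells that make these proteins did not move as 1 group. For comparison, 6.04% of all tested features were called higher and 4.97% lower. Of 12 fibroblast and stroma markers 2 were called higher (Mfap5 and Lum) and 3 lower (Pi16, Gsn and Pdgfra), and their sum overlapped, at 3900.5 to 4272 FPKM for f/f and 3368 to 4770.3 for d/d. Pdgfra, the growth factor receptor that marks fibroblasts, was at 39.2 to 44.6 FPKM for f/f and 19.8 to 28.7 for d/d, and lost its call without f/f replicate 2 or 3 or d/d replicate 1 or 3, at a limma adjusted p of up to 0.0751. Pi16, Gsn, Mfap5, Des, Synpo2, Msx2, Epcam and Krt18 each kept their calls in 1 or 2 of 6 leave-one-out fits. Of 10 smooth muscle markers 0 were called higher and 2 lower (Des and Synpo2), with sums of 2298 to 5491 and 2812 to 4579 FPKM. Of 10 endothelial markers 1 was called higher (Vwf), with sums of 288 to 369.95 and 318 to 473 FPKM. In the secretory epithelium list 2 of 9 were called higher (Msx2 and Epcam) and 1 lower (Krt18), of which Msx2, with an f/f mean of 0.519 FPKM, passed the filter only through d/d. The multiciliated, mesothelial, ovarian, adipocyte and uterine lists had 0 called genes by limma, with 0, 1, 0, 0 and 1 genes at an unadjusted p under 0.05, where 29.6% of all features were. The mesothelial sum did not overlap between groups, at 384 to 479.8 FPKM for f/f and 232 to 289 for d/d, of which the keratin gene Krt19, also a marker of epithelium, was 265 to 413 and 142 to 205. The multiciliated sum was 84.5 to 305 FPKM for f/f and 29.4 to 151 for d/d, and the adipocyte sum 82.2 FPKM for f/f replicate 1 and 0.205 to 14.1 in the other libraries. The ovarian sum was 37.7 FPKM for f/f replicate 3, of which the steroidogenic gene Cyp11a1, named after its values were seen, was 13.5, and 6.34 to 8.49 in the other libraries. The part of any of these cells in the results for Fn1, Postn, Thbs1 and Thbs2 was not tested.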

How the data were processed

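Whole-oviduct RNA was extracted with TRIzol and sequenced from TruSeq RNA libraries, per the labels' protocols. HISAT2 2.2.1, Cufflinks 2.2.1 and the builds mm9 and mm10 are named, per the submitters' processing notes, and no source used here gives the strand settings. The authors deposited 1 value per gene and library, read here as FPKM from its decimals and from Cufflinks. From these values, limma 3.58.1 (R 4.3.3, trend = TRUE) was fitted to log2(FPKM + 1) with genotype as the only term, over the 15438 features whose mean FPKM reached 1. Tests are two-sided, with 4 residual degrees of freedom per gene before moderation, and were called at a Benjamini-Hochberg adjusted p below 0.05. The fold between group means is on the FPKM scale. The log2(FPKM + 1) scale understates changes of low genes. The code was tested on simulated data. Implied fragments are estimates, and no count test was run.

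The 10 members and all gene lists were chosen with earlier results of these data known. Named genes were the members, Mettl3 and, from each list, up to 4 called genes ranked by their change. Where none was called, the 2 with the highest mean were named. The 5 tested features nearest to Spp1 were added, leaving out model and clone symbols such as Gm and Rik names. Exceptions are genes said to be chosen or named after their values were seen and, in counts of 5 or fewer, the remaining called genes. Alternatives were another pseudocount, no filter, 3 scalings, a replicate block and leaving libraries out. Positions and overlaps come from GENCODE M21 (GRCm38), matched by gene ID, and promoter windows from RefSeq GRCm38.p6, matched by symbol for 6 of 10 members.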

Additional observations from a re-analysis of the deposited data

How the results depend on the processing

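Of the 5 member calls, all 5 held with a pseudocount of 0.1, quantile normalization or TMM scaling. With no filter on low values 1 member was higher, 599 features were higher and 508 lower, and 3 enzymes were higher. Leaving out single libraries gave 0 to 3 members higher and 0 to 1 lower, and 98 to 926 features higher and 71 to 854 lower, with the lowest counts without f/f replicate 2. The same fits gave 0 to 1 other matricellular genes higher and 1 to 3 lower (4 without both replicates numbered 1), 0 to 1 receptors higher and 0 to 1 lower, 1 to 4 enzymes higher and 0 to 1 lower, and 0 to 2 TGF-beta genes higher. Without both replicates numbered 1, 1 member, 3 enzymes, 1 receptor and 1 TGF-beta gene were higher and 1 receptor was lower. The TGF-beta list had 1 gene higher with a pseudocount of 0.1, with TMM scaling or after rescaling to nuclear protein-coding genes, and 2 with quantile normalization. The cause of these changes was not tested.

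Log2 changes of 6 named genes that were not called changed sign. Sparc was at 0.0499, 0.0113 and 0.0713 after leaving out f/f replicate 1, d/d replicate 1 or both, with a range from -0.0428 over single libraries. Sparcl1 was at -0.106 with quantile normalization, -0.0217 after rescaling and -0.0949, -0.0456 and -0.1505 after leaving out f/f replicate 1, d/d replicate 1 or both, with a single-library high of 0.0766. Calr reached 0.0047, 0.0335 and 0.0675 without f/f replicates 2 and 3 and d/d replicate 2, with a low of -0.1805 without both replicates numbered 1. Without both replicates numbered 1, Foxj1 went from -0.7916 with all libraries to 0.2488 (lowest of the fits that left out libraries -1.2733), Wt1 from -0.3288 to 0.2065 (lowest -0.5249) and Foxa2 from 0.2871 to its highest, 1.5884. Foxa2 was at -0.3175 and -0.3477 after leaving out f/f replicate 3 or d/d replicate 2.

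The labels do not say whether equal replicate numbers mark pairs. Deviations from the group mean correlated at -0.22, -0.06 and 0.003 for same-numbered libraries. For other combinations they correlated at -0.28 to 0.28. With 3 libraries a group these values cannot decide whether libraries were paired. A block on replicate number gave other counts: 174 features were higher and 102 lower, 0 members were higher and 1 lower, 1 other matricellular gene was lower, and 1 enzyme was higher and 0 lower. With 3 libraries a group and Spp1 and Tnc at fewer than 200 implied fragments in f/f, the precision for these genes is low.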
